A study of Oryza sativa with 12 samples.

Results

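Aquaporins are the channel proteins through which water and small uncharged solutes cross plant membranes. Genes were taken as rice aquaporins when a symbol or synonym in the gene table, after a leading Os, was PIP, TIP, NIP or SIP with a member number, or Lsi1 or Lsi6. The table held 29 such genes, and 25 of them were paired with a probe set of the array, by 31 of its 57381 probe sets in all. They were 10 of 11 PIP genes, 8 of 9 TIP genes, 5 of 7 NIP genes and both of the 2 SIP genes. NIP1-2, NIP3-3, PIP2-3 and TIP5-1 were paired with no probe set and were not analysed here.

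The PIPs are named for the plasma membrane and the TIPs for the tonoplast, the membrane of the vacuole. The NIPs are named for nodulin 26 of soybean and pass solutes such as silicic acid, boric acid and arsenite, and the SIPs are small basic channels placed in the endoplasmic reticulum in Arabidopsis. Many PIP2 proteins are efficient water channels, and PIP1 proteins often reach the plasma membrane only together with a PIP2. Lsi1 (NIP2-1) takes up silicon in rice roots, and Lsi6 (NIP2-2) moves silicon out of the xylem in rice leaf sheaths and blades.

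The study hybridised RNA of 12 samples, each the shoots and leaves of seedlings with 4 leaves, to 1 array per sample. In the cultivar ZH11 there were 2 lines that overexpress OsMYB30, OE2 and OE28, and 1 control line, and in the cultivar Huayang there were 2 lines homozygous for an osmyb30 mutation, mutant 1 and mutant 2, and 1 wild type line. Each of the 6 lines was sampled once before cold and once after 6 h at a constant 4 °C, with 14 h of light and 10 h of dark, so that overexpression and mutant groups held 2 arrays and control and wild type groups held 1. Seedlings kept for 6 h without cold were not analysed here, so cold and the passing of 6 h cannot be told apart. The promoter of the overexpression construct, the nature of the mutation and the number of seedlings in a sample are not given in the sources used here. OsMYB30 is paired with no probe set, so its own transcript could not serve as a check of the labels.

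Values are probe set intensities on a linear scale as the authors deposited them, and array medians lay at 34.6 to 37.15. Precision is limited by the small number of arrays. Changes are differences of log2(intensity + 16) after quantile normalization, a scale on which dim genes seem to change less than they do. Errors are standard errors (SE). A gene was called when limma gave a Benjamini-Hochberg adjusted p below 0.05 over the 34355 probe sets tested, and each gene is represented by its brightest probe set. Of the 25 measured aquaporins, 22 passed the filter on dim probe sets and were tested. NIP3-1, NIP4-1 and PIP2-8 did not pass and read 3.9 to 14.4 on all arrays, and the probe sets of TIP3-1 and TIP3-2, channels known from seeds, were tested but stayed at or below 73.9, the highest reading of the dim reporter and selection marker probe sets. The wild type went against its label in 1 respect. RPTR-Os-K01193-1_at, a reporter or selection marker probe set, read 2658.5 and 3821.8 in the wild type and 18.6 and 64.3 in the ZH11 control, against 11860.8 to 17781.9 in the overexpression and mutant lines, so cold and cultivar results that change without the wild type line are also given without it, while the mutants have no other line to be set against. The leaf genes CAB2R, of a light-harvesting protein, and RBCS, of the small Rubisco subunit, were bright on all arrays, at 17199.8 or above.

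The first comparison asked how aquaporin transcripts stood after cold. Across all 6 lines, 15 of the 22 tested aquaporins fell and 1, PIP2-7, rose (6 arrays against 6). Of all probe sets tested, 34.1% were called, 19.9% lower and 14.2% higher, while 68.2% of the aquaporins were called lower. Aquaporins were counted by their brightest probe set, and all probe sets were not matched to them in brightness, here or in the shares below. The median log2 change of the aquaporins was -0.31, beside 0.0075 for all probe sets tested. By family, 7 of 9 PIPs, 4 of 8 TIPs, 3 of 3 NIPs and 1 of 2 SIPs were lower. Values come from whole shoots, so fewer cells of a type and less RNA per cell cannot be told apart. In each sentence below, ZH11 values are in the order OE2, OE28, control and Huayang values in the order mutant 1, mutant 2, wild type.

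Among the PIP1 genes, PIP1-1 read 10387, 11473 and 10681 before cold and 8799.8, 9262 and 8767 after it in the ZH11 lines. In the Huayang lines PIP1-1 read 10192, 9417 and 9940.3 before cold and 10056, 7438 and 7870.2 after it. All 3 ZH11 lines were lower after cold, while mutant 1 read nearly alike at both times, and the mean log2 change was -0.28 (SE 0.07, adjusted p = 0.0058). PIP1-2 read 11358, 11727 and 13126 before cold and 10496, 11156 and 11121 after it in ZH11 and 12109, 11819.9 and 12422 before cold and 10228, 9671 and 10385 after it in Huayang. No array after cold reached the lowest array before it, and PIP1-2 fell by 0.22 (SE 0.04, adjusted p = 0.000904). PIP1-3, also called RWC3 and known as a water channel in rice, read 1559, 1572 and 2135 before cold and 1242, 1094 and 1453 after it in ZH11. In Huayang PIP1-3 read 3409.7, 4216 and 3952 before cold and 3470.3, 2886 and 2538 after it. The reading of mutant 1 was not lower after cold, unlike that of the other 5 lines, and the mean log2 change was -0.42 (SE 0.11, adjusted p = 0.0116).

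The PIP2 genes held both the largest fall and the only rise among the called aquaporins, TIP2-1 aside, whose size is not established. PIP2-5 read 134, 124 and 212 before cold and 67.5, 46.7 and 112 after it in ZH11 and 265, 187 and 174 before cold and 138, 79.6 and 66.4 after it in Huayang. Each line was lower after cold, although the ranges of the times overlapped between lines. PIP2-5 fell (log2 change as measured -0.93, SE 0.22, adjusted p = 0.00602). Since 3 of its 6 arrays after cold read under 73.9, the size is given as at least 0.87, with readings under 73.9 set to that value. This bound is on deposited values without quantile normalization, so it is not on the same scale as the change as measured. PIP2-1 read 7232, 7902 and 8300.2 before cold and 6484, 6909.6 and 6863 after it in ZH11 and 8216, 7879 and 7577 before cold and 6203, 6274 and 6062 after it in Huayang. PIP2-2 read 8681, 8757 and 8674 before cold and 7228, 7016 and 6657 after it in ZH11 and 9319, 8285 and 8457 before cold and 8153, 6296 and 6643 after it in Huayang. Neither gene overlapped between the times, and their log2 changes were -0.29 (SE 0.04) and -0.33 (SE 0.06). PIP2-6, which also passes arsenite in rice, read 6488, 7240.0 and 7648 before cold and 6158, 6903 and 6671 after it in ZH11. In Huayang PIP2-6 read 5643, 5556 and 6603 before cold and 4211, 3804 and 4181 after it. The fall was 0.33 on the log2 scale (SE 0.06, adjusted p = 0.000832), and the 3 Huayang arrays after cold, at 4211 or below, lay under all other arrays.

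PIP2-7 moved the other way. It read 6893, 5922 and 6821 before cold and 8018, 7318 and 7372 after it in the ZH11 lines and 6439, 6975 and 6369.9 before cold and 7898, 7387 and 8856 after it in the Huayang lines. Every array after cold was above every array before it, and PIP2-7 rose 1.18-fold (log2 change 0.24, SE 0.06, adjusted p = 0.00655). PIP2-4 read 147 to 635 and did not pass (log2 change -0.37, SE 0.27, adjusted p = 0.306).

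Of the tonoplast channels, TIP1-1 read 13115, 13524 and 14993 before cold and 10595, 11699 and 12389 after it in ZH11 and 14442, 13721 and 15277 before cold and 11805, 11001 and 11053 after it in Huayang. TIP2-2 read 11362, 12830.3 and 11457 before cold and 9019.9, 10682 and 10313 after it in ZH11 and 9736, 9999 and 10099 before cold and 8878, 8478 and 8035 after it in Huayang. For TIP1-1 the times did not overlap, and each line of both genes was lower after cold. The log2 changes were -0.33 (SE 0.05) for TIP1-1 and -0.28 (SE 0.05) for TIP2-2. TIP4-1 read 7218, 7924 and 8502 before cold and 6192, 7067 and 7313 after it in ZH11 and 7302, 7279 and 7382 before cold and 6231, 6260.2 and 6832 after it in Huayang. It fell by 0.20 (SE 0.05, adjusted p = 0.0097). TIP2-1 read 69.6, 79.2 and 64 before cold and 43.2, 44.8 and 38.9 after it in ZH11 and 83.5, 89.4 and 99.8 before cold and 51.9, 42.2 and 53.3 after it in Huayang. Its arrays after cold all lay in the dim range, as did OE2 and the control before cold. TIP2-1 was called lower (adjusted p of the fit = 2.47e-05), but the size of its fall is not established. With readings under 73.9 set to that value, the log2 change was -0.14, again on deposited values without quantile normalization. Set so, OE2 and the control could show no change, so this value is not a bound. TIP1-2 (1070.1 to 1687), TIP4-2 (90.5 to 144), TIP3-1 and TIP3-2 were not called.

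All 3 tested NIPs fell. NIP1-1, an aquaporin that passes arsenite in rice, read 2912, 3171 and 3929.9 before cold and 2094, 2516 and 2945 after it in ZH11 and 3099, 2789 and 3249 before cold and 1839, 1909 and 1383 after it in Huayang. Each line was lower after cold, most of all the wild type, and NIP1-1 fell 1.54-fold (log2 change -0.63, SE 0.11, adjusted p = 0.000662). Lsi6 read 1431, 1625 and 2067 before cold and 922, 925 and 1497 after it in ZH11 and 2040.1, 2161 and 2011 before cold and 1695, 1742 and 1552 after it in Huayang. It was lower after cold in each line, and fell 1.37-fold (log2 change -0.45, SE 0.12, adjusted p = 0.014). Lsi1 read 306, 198 and 247 before cold and 184, 151 and 160.0 after it in ZH11 and 275, 222 and 188 before cold and 214, 172 and 131 after it in Huayang. Lsi1 was lower after cold in all 6 lines (log2 change -0.35, SE 0.12, adjusted p = 0.039). This call was lost in 8 of 12 fits with 1 array left out (adjusted p 0.0607 to 0.0963). Those 8 arrays were OE2 and control before cold, OE28, control and wild type after cold, both mutants before cold and mutant 2 after it. Without the wild type line the calls of Lsi1, Lsi6 and PIP1-3 were lost (adjusted p = 0.0676, 0.0555 and 0.0609).

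Of the SIPs, SIP1-1 read 1975, 1891 and 1382 before cold and 1334, 1172 and 948 after it in ZH11 and 1579, 1564 and 1513 before cold and 1126, 1106 and 1144 after it in Huayang. The times did not overlap, and SIP1-1 fell 1.42-fold (log2 change -0.51, SE 0.08, adjusted p = 0.000593). SIP2-1 read 57.8 to 115 and was not called. Counted line by line, 14 of the 22 tested aquaporins were lower after cold in all 6 lines, which is 63.6%, beside 22.7% of all probe sets tested. PIP2-7 was higher in all 6 lines, and 19.1% of all probe sets were.

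**Figure D1:**
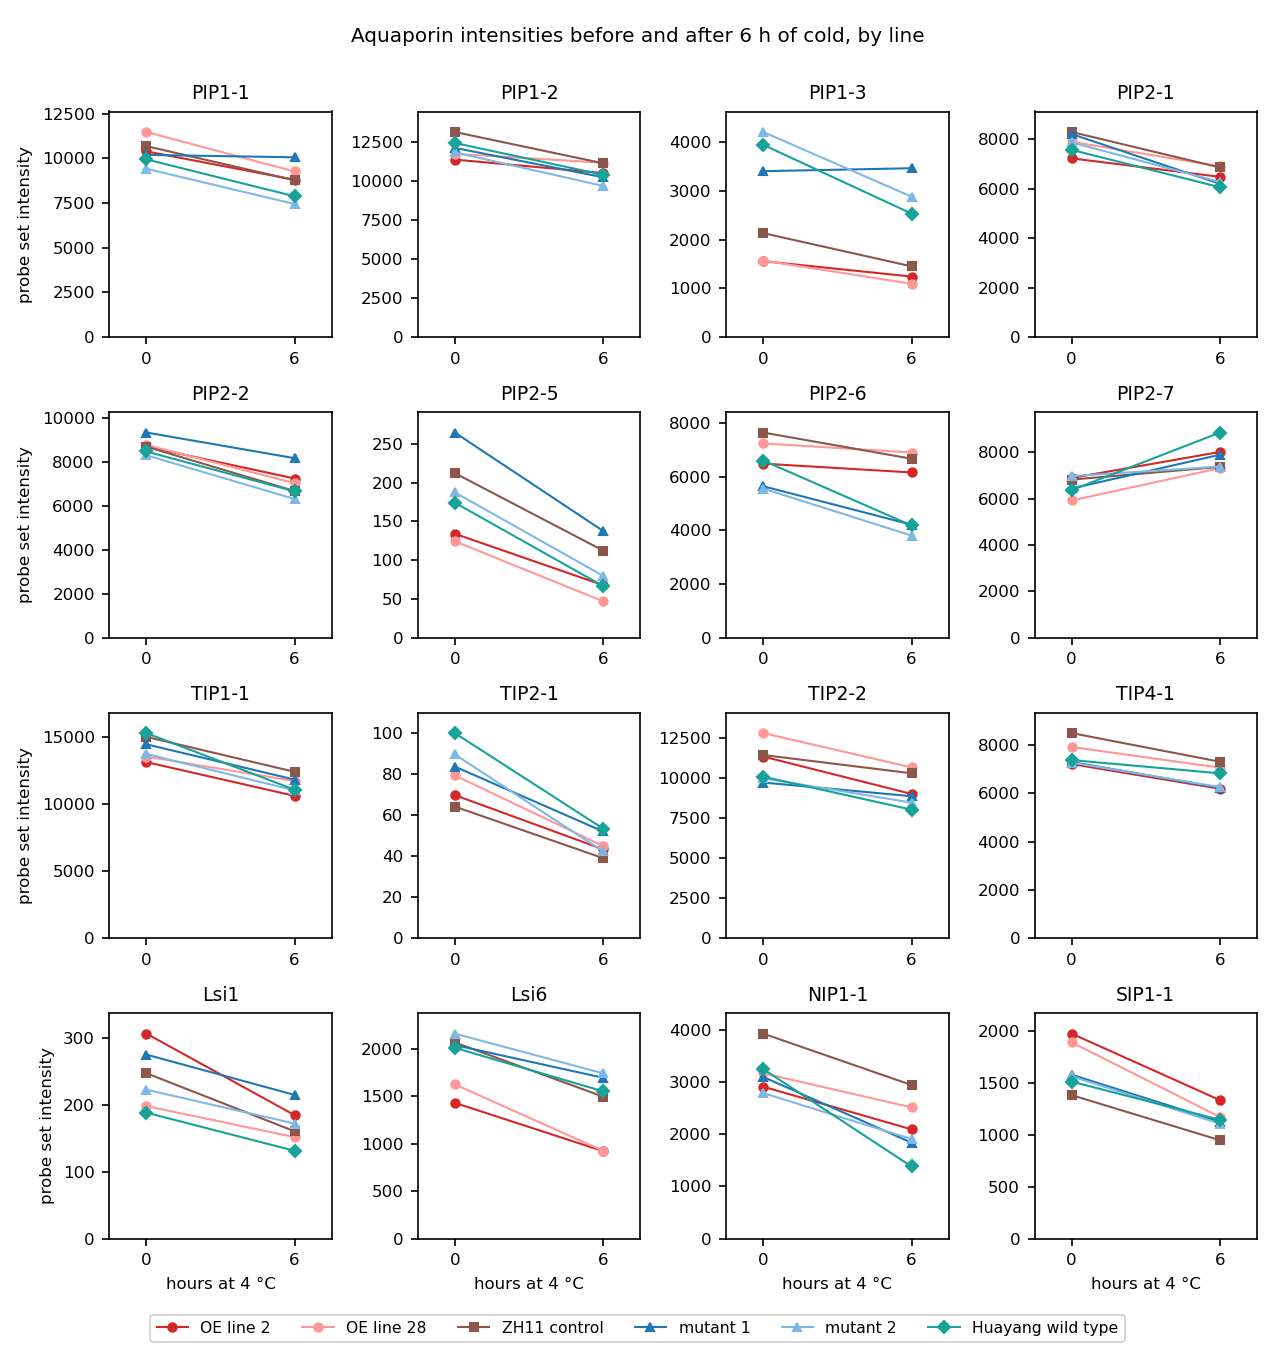
Deposited intensity (linear axis from 0) of the 16 aquaporins called for cold over all lines, against hours at 4 °C, with 1 point per array and a line joining the arrays of each of the 6 plant lines. Most lines slope down, PIP2-7 slopes up in all 6, and mutant 1 stays level for PIP1-3 and PIP1-1.

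Genes with more than 1 probe set mostly moved alike. Both other PIP2-1 probe sets were called lower over all lines, and so was a second TIP1-1 probe set at -0.58. The second PIP2-2 probe set gave -0.08 and was not called (adjusted p = 0.296). A second TIP4-1 probe set was called but lay in the dim range, and a second TIP2-1 probe set did not pass the filter. Several of these probe sets, and the only ones of Lsi6, TIP2-2, TIP4-2 and TIP3-1, carry a suffix of the array's design (_x_at or _s_at). It marks probes which may match other transcripts, and how much of a reading comes from those was not tested.

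Within ZH11 (3 arrays against 3), 8 of 22 aquaporins were lower and 0 higher, where 20% of all probe sets were called, 12.6% lower and 7.46% higher. They were PIP1-1, PIP2-1, PIP2-2, TIP1-1, TIP2-1, TIP2-2, Lsi6 and SIP1-1. A PIP2-1 probe set of nearly equal brightness (median 7064.8 against 7070.9) gave -0.11 in ZH11 and was not called (adjusted p = 0.284). Another, dimmer one gave -0.74 (adjusted p = 0.00114). The second PIP2-2 probe set gave -0.10 in ZH11 (adjusted p = 0.406). Averaging the probe sets of a gene ended the call of PIP2-2 alone, in ZH11 and in Huayang (adjusted p = 0.0698 and 0.112). Lsi6 changed by -0.60 (SE 0.17, adjusted p = 0.03) and SIP1-1 by -0.57 (SE 0.12, adjusted p = 0.00497). With line as a block, which uses that each line was sampled at both times, 15 were lower and 1 higher, where 33.8% of all probe sets were called. The count was 5 without OE28 after cold or without the control before it. The call of Lsi6 was lost without OE2 after cold, OE28 at either time or the control before cold (adjusted p 0.0623 to 0.118), that of PIP1-1 in 9 of 12 fits without 1 array and that of TIP1-1 in 3. Within Huayang, 10 were lower and 1 higher, where 19.3% of all probe sets were called, 12% lower and 7.25% higher. Those lower were NIP1-1 (-0.84, SE 0.15), PIP1-2, PIP2-1, PIP2-2, PIP2-5 (as measured -0.98, SE 0.31, with the wild type after cold under 73.9), PIP2-6 (-0.54, SE 0.08), SIP1-1, TIP1-1, TIP2-1 and TIP2-2, and PIP2-7 was higher (0.27, SE 0.08). The count of 11 was 7 without mutant 1 before cold and 5 without the wild type line, which ended the calls of PIP2-2, PIP2-5, PIP2-7, SIP1-1, TIP1-1 and TIP2-2. With line as a block, 15 were lower and 1 higher, where 30.9% of all probe sets were called. The block added Lsi6 (-0.30, adjusted p = 0.00248), Lsi1, PIP1-1, PIP1-3 and TIP4-1. With 1 array left out, the calls of PIP2-5, SIP1-1, PIP2-7 and PIP2-2 were lost in 7, 5, 4 and 3 of 12 fits.

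A gene called in one cultivar and not in the other was not thereby shown to respond differently. The test of that difference, the cold by cultivar interaction in limma, called 0 of 22 aquaporins, where 0.102% of all probe sets were called, and 1 had an unadjusted p below 0.05, beside 4.73% of all probe sets. That gene was PIP2-6, at -0.41 (SE 0.12, adjusted p = 0.568), which was called with line as a block (adjusted p = 0.0434). For Lsi6 the difference was 0.30 (95% interval -0.24 to 0.83, adjusted p = 1).

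**Figure D2:**
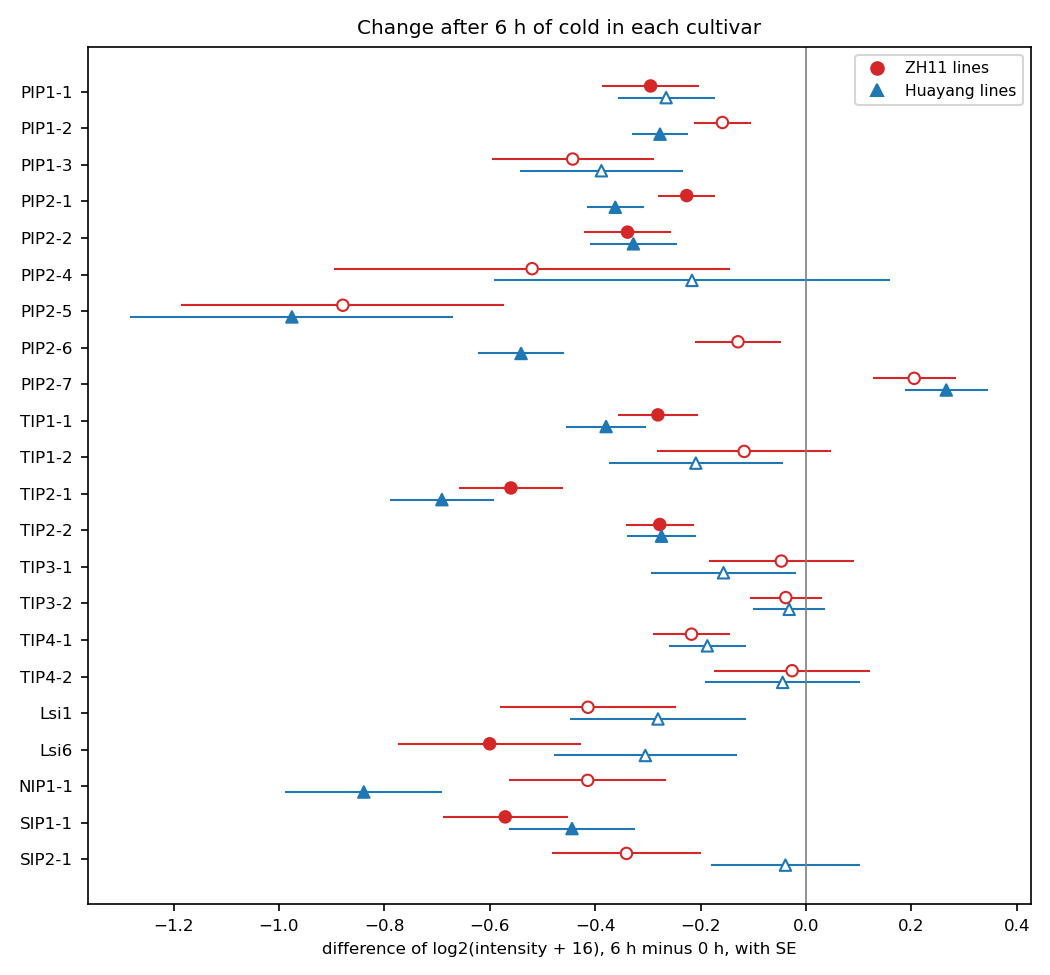
Log2 change after cold for each tested aquaporin in the ZH11 lines (circles) and the Huayang lines (triangles), with bars of 1 SE; filled points passed the test and open points did not. Points lie mostly left of 0 in both cultivars, and PIP2-7 lies right of 0. TIP2-1 read in or near the dim range, so the size of its change is not established.

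Other transport genes were counted alongside. Of 21 tested potassium channel and transporter genes, 8 fell and 3 rose over all lines, with a median of -0.15, where 19.9% of all probe sets were lower and 14.2% higher. HAK7 rose by 1.05 (SE 0.08), HAK3 by 0.41 and HAK25 by 0.22, while AKT1, a potassium uptake channel, fell by 0.34 (SE 0.08). Lsi2, the silicon exporter that works beside Lsi1 in roots, read 6.9 to 10.6 and did not pass the filter, and no gene with the name of a tonoplast pyrophosphatase was found. Of 6 measured root marker genes, Lsi2, PT11 and HKT1-5 were dim on all arrays. The 6 root markers, Lsi1 among them, summed to 551.7 to 699.3 before cold and 427 to 501.8 after it, and NRAMP5, a root manganese and cadmium transporter gene, fell by 0.47 (SE 0.16). IRT1 at -0.30 and HKT1-5 at 0.11 were not called. The part of the root markers in the fall of Lsi1 was not tested.

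The overexpression lines were set against the ZH11 control, with 2 arrays against 1 at each time and 4 against 2 as a mean of both times. As that mean, Lsi6 and NIP1-1 were lower and SIP1-1 was higher among 22 aquaporins, where 4.06% of all probe sets were called, 2.17% higher and 1.89% lower. Lsi6 read 1430.7 and 1625 in OE2 and OE28 against 2067 in the control before cold. After cold it read 922 and 925 against 1497. Both lines were below the control at both times, and Lsi6 was 1.5-fold lower (log2 difference -0.59, SE 0.07, adjusted p = 0.00677). The adjusted p of Lsi6 stayed between 0.00477 and 0.0360 over all 20 repeats with other settings or 1 array fewer. No repeat left out a control array, as there was 1 at each time, so dependence on the control line was not tested. Of the 4 tested root markers, NRAMP5 was also lower in the overexpression lines (log2 difference -0.70, SE 0.12, adjusted p = 0.0242). The other 3 were not called, with IRT1 at 0.21, Lsi1 at -0.06 and HKT1-5 at -0.05. IRT1 read 160.8 and 112.8 in OE2 and OE28 against 99.2 in the control before cold, and 105 and 95.1 against 90 after it. The 6 root markers summed to 551.7 and 675.8 in these lines against 695.1 in the control before cold, and to 434.5 and 459 against 501.8 after it, with Lsi2, PT11 and HKT1-5 dim on all arrays. Their part in the differences of the aquaporins was not tested.

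NIP1-1 read 2912 and 3171 against 3929.9 before cold, and 2094 and 2516 against 2945 after it. It was lower than the control in both lines at both times (log2 difference -0.39, SE 0.08, adjusted p = 0.0463). With line as a block the call was lost (adjusted p = 0.0936), and it was lost without OE2 at either time, without OE28 before cold or without either mutant before cold (adjusted p 0.0549 to 0.123). Leaving off the filter on dim probe sets, leaving off the intensity trend and median centring each ended it too (adjusted p = 0.0556, 0.0621 and 0.0527). SIP1-1 read 1975 and 1891 against 1382 before cold, and 1334 and 1172 against 948 after it. Both lines were above the control at both times, and SIP1-1 was 1.31-fold higher (log2 difference 0.38, SE 0.06, adjusted p = 0.0212). The SIP1-1 call was lost without OE2 at either time (adjusted p 0.0624 and 0.0671).

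Taken by time, limma called 0 aquaporins before cold, where 0.571% of all probe sets were called, and 9 of 22 had an unadjusted p below 0.05, beside 21.1% of all probe sets. Lsi6 differed by -0.50 (adjusted p = 0.068) and SIP1-1 by 0.40 (adjusted p = 0.0795) before cold, and median centring called SIP1-1 (adjusted p = 0.0429). After cold, Lsi6 alone was called, at -0.67 (SE 0.10, adjusted p = 0.0434), where 0.311% of all probe sets were called, 0.0815% lower. That call was lost without OE2 or OE28 after cold (adjusted p = 0.231 and 0.168), without any 1 of the 4 mutant arrays (0.0510 to 0.0798) and without the intensity trend in limma (0.0804). In the difference between the times limma called 0 aquaporins, with 0 at an unadjusted p below 0.05, beside 4.08% of all probe sets, and 0% of all probe sets called. PIP2-5 (as measured -0.84, SE 0.21, adjusted p = 0.0665, with OE2 and OE28 under 73.9 after cold) and PIP1-3 (-0.41, SE 0.10, adjusted p = 0.0676) did not pass as a mean of both times. The third principal component also set the ZH11 control arrays (-30.70 and -25.47) apart from the overexpression arrays (1.88 to 28.24), and with 1 control line the overexpression construct and the line cannot be told apart.

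**Figure D3:**
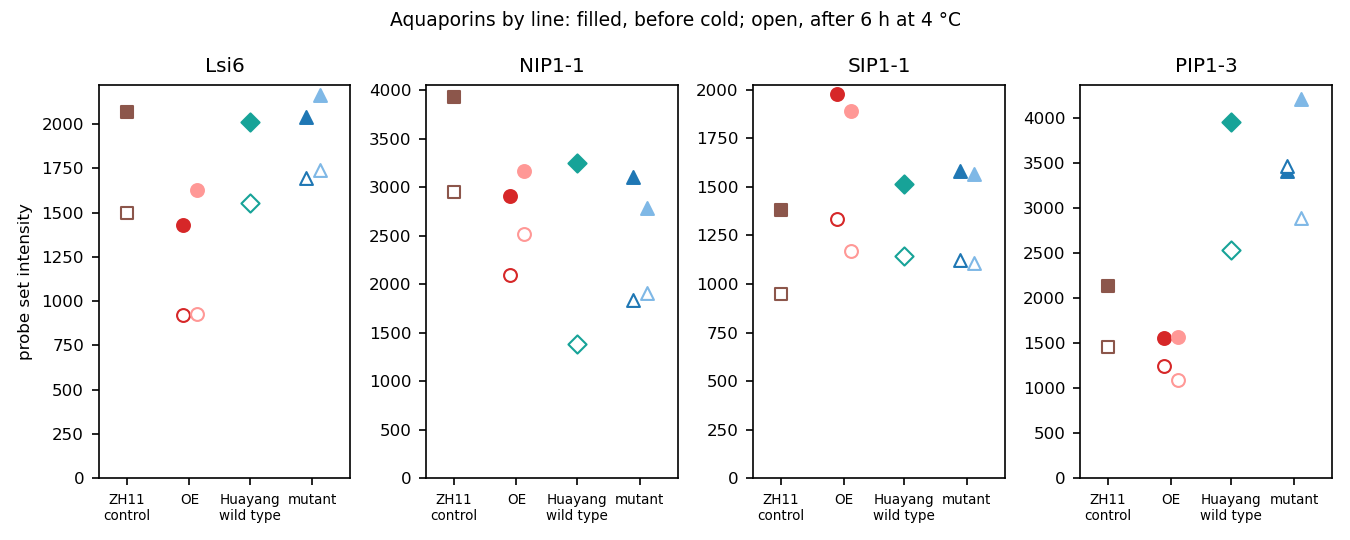
Deposited intensity (linear axis from 0) of Lsi6, NIP1-1, SIP1-1 and PIP1-3 by genotype, with 1 point per array, filled before cold and open after 6 h at 4 °C; in a pair of lines the left point is OE2 or mutant 1. Lsi6 and NIP1-1 lie lower and SIP1-1 lies higher in OE2 and OE28 than in the ZH11 control at both times, and PIP1-3 lies higher in the Huayang arrays.

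The mutants were set against the Huayang wild type in the same way. Here limma called 0 aquaporins before cold, after cold, as a mean of both times and in the difference between times, where 0.00291%, 0.0204%, 0.0262% and 0% of all probe sets were called. An unadjusted p below 0.05 was reached by 2, 1, 1 and 2 of the 22 aquaporins, and by 5.05%, 9.52%, 12.5% and 2.93% of all probe sets. Lsi6 read 2040.1 and 2161 in the mutants against 2011 in the wild type before cold. After cold it read 1695 and 1742 against 1552. The mean log2 difference of Lsi6 was 0.07 (95% interval -0.09 to 0.23), an interval that spans 0. NIP1-1 was 0.39 in the mutants after cold (SE 0.12, adjusted p = 0.4), where it read 1839 and 1909 against 1383. The wild type is a single line with marker signal, so a difference between the mutants and an unmodified Huayang plant was not tested.

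The 2 mutant lines were unlike each other for PIP2-4. It read 589.7 in mutant 1 before cold, against 209 in mutant 2 and 178 in the wild type. In ZH11 it read 449.5, 510.3 and 635 before cold and 311, 284 and 431 after it. After cold mutant 1 read 289.6, near the wild type at 259, while mutant 2 read 146.7, below both. The values of mutant 1 before cold lay within the range of ZH11, and no test covers a single line.

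**Figure D4:**
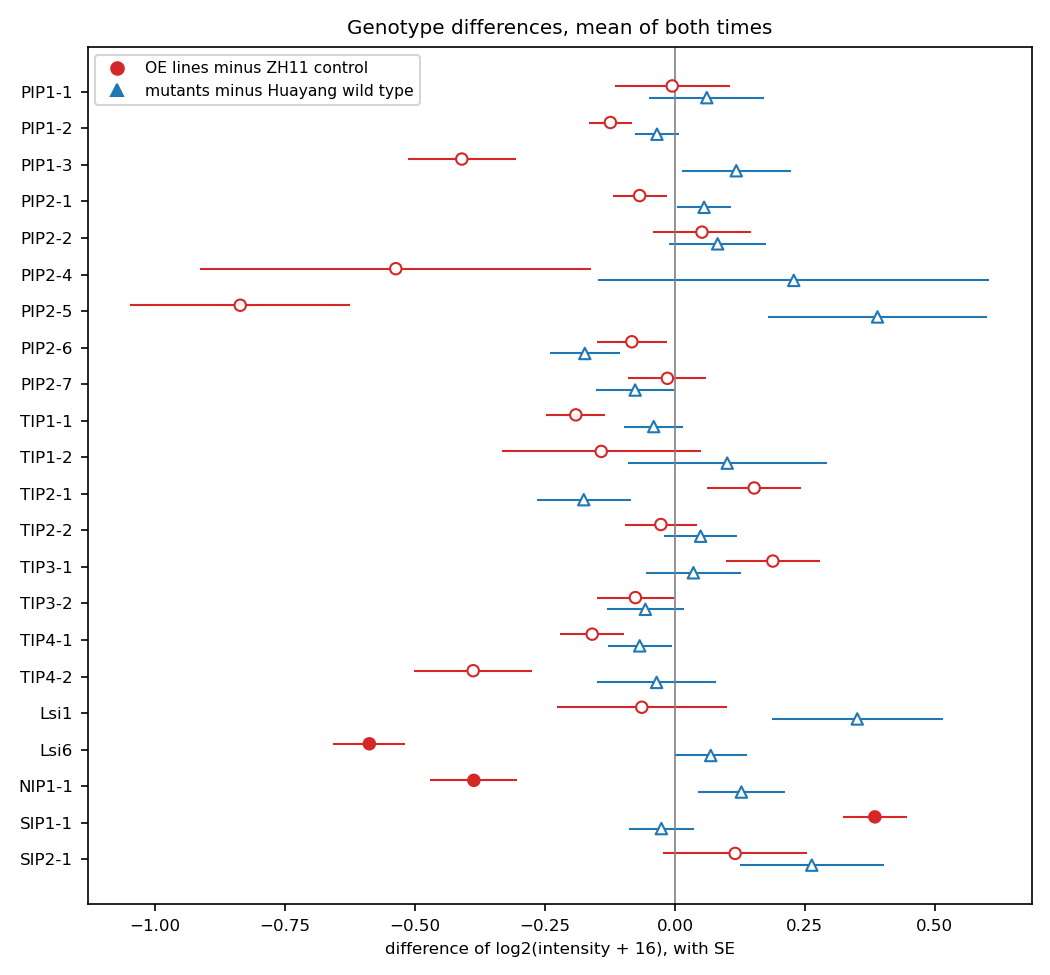
Log2 difference of each tested aquaporin, overexpression lines minus control (circles) and mutants minus wild type (triangles), as means of both times with bars of 1 SE; filled points passed the test and open points did not. Lsi6, NIP1-1 and SIP1-1 are filled for the overexpression lines, and no point is filled for the mutants.

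The cultivars were compared over their 3 lines each, Huayang minus ZH11. In ZH11 2 of these lines overexpress OsMYB30, and in Huayang 2 are osmyb30 mutants. Cultivar and genotype therefore cannot be told apart in these differences, nor in the cold by cultivar interaction. Before cold 1 of 22 aquaporins, PIP1-3, was called, where 5.26% of all probe sets were called, 2.97% higher and 2.28% lower. As its readings above show, all Huayang arrays lay above all ZH11 arrays at both times, and PIP1-3 was 2.22-fold higher before cold (log2 difference 1.15, SE 0.15, adjusted p = 0.000746) and 2.30-fold higher after it (1.20, SE 0.15, adjusted p = 0.000349). The wild type minus the control, 1 array each, gave 0.84 before cold and 0.80 after it. Without OE2 after cold, mutant 1 before cold or the wild type before cold the count of 1 was 2, with TIP2-2, PIP2-4 or PIP2-6 added in turn. After cold 4 were called, where 10.6% of all probe sets were called, 5.84% higher and 4.76% lower. PIP2-6 was lower in Huayang (-0.68, SE 0.08, adjusted p = 0.000211), and NIP1-1 (-0.54, adjusted p = 0.0367) and TIP2-2 (-0.23, adjusted p = 0.0457) were lower too. The wild type minus the control after cold gave -0.63 for PIP2-6, -1.03 for NIP1-1 and -0.36 for TIP2-2. NIP1-1 and TIP2-2 lost their calls in 7 and 8 of 12 fits without 1 array, namely both without OE28 or the control after cold, without mutant 1 or the wild type at either time, NIP1-1 also without OE28 before cold and TIP2-2 also without mutant 2 at either time. OE28 after cold, mutant 1 at either time and the wild type at either time each brought the count of 4 to 2 when left out. So did leaving out the wild type line, which ended the calls of NIP1-1 and TIP2-2 (adjusted p = 0.173 and 0.195). Lsi6 was higher in Huayang by 0.59 after cold without passing (adjusted p = 0.0522), and passed with line as a block (adjusted p = 0.0245). The wild type minus the control gave -0.07 for Lsi6 before cold and 0.07 after it, and without the ZH11 control line the difference after cold was 0.81. The difference of 0.59 is therefore not shown as one between cultivars. Whether sequence differences between the cultivars touch these probes was not tested.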

How the data were processed

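The authors deposited probe set intensities on a linear scale, per the file headers and the values; the summary and normalization method is not given in the sources used here. In the annotation 22436 probe sets have 1 gene, 95 have several genes and 34727 have none. The 123 control probe sets were left out. Intensities were taken as log2(value + 16) and quantile normalized, because array quartiles differed by up to 0.238 (limit 0.2), and those whose mean reached the 40th percentile were tested. R 4.3.3 and limma 3.58.1 (lmFit, eBayes with trend) fitted 4 means of cultivar by time for cold and cultivar (8 residual degrees of freedom), and 8 group means for genotype (4), where a lone array is taken to vary as much as the groups of 2 do. Adjustment was by Benjamini-Hochberg over all 34355 probe sets, and the fit was tested on simulated data.

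The members, gene lists and tests were chosen with earlier results of these data known, and the limit of 73.9 for dim readings after the data were examined. Every aquaporin is named, and values on every array are given for those called. Nothing says that samples of a group came from separate cultures, so p-values measure only the spread between these samples, which may be technical. In the cold and cultivar fits the lines of a cultivar, which differ in genotype, served as replicates. Their spread therefore also holds differences between lines and genotypes. The pairing comes from the labels, which give every line a sample at either time. The pair of arrays of a line deviated together, with correlations of 0.517 for OE2 and OE28 and 0.429 for the mutants. Protein and promoter sequences were planned but not used here. Alternatives were other scalings, filters and pseudocounts, averaged or any probe sets of a gene, no trend, line as a block, other models, fewer arrays, and each array left out. A control or wild type array could not be left out of a genotype comparison that uses it. Leaving out the control or the wild type line was added after seeing the data.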

Additional observations from a re-analysis of the deposited data

Results flagged for a closer look

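Strong signal was found in 2 marker probe sets, which are not aquaporins, and in the overexpression lines both read above the ZH11 control. RPTR-Os-A00196-1_s_at read 7940.3 or more in the overexpression lines and 25.8 and 31.7 in the control, and at most 113.5 in the mutants and the wild type. RPTR-Os-K01193-1_at read 11860.8 or more in the overexpression lines, 13835.2 or more in the mutants and 2658.5 or more in the Huayang wild type, against 18.6 and 64.3 in the control. The reading of the wild type bears on the comparisons that use the Huayang lines, and those of cold and cultivar were repeated without it.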

How the results depend on the processing

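The 44 calls of a gene in a comparison were repeated 1083 times under other settings or without 1 array: 975 repeats kept direction and call, 108 kept the direction and lost the call, and 0 reversed. Some outcomes were fixed in advance. A repeat that took any probe set of a gene could not lose a call. Leaving out an array that a comparison does not use could not move its log2 change. Among counts of called aquaporins, cold in ZH11 gave 8, with 13 under median centring and 16 with line as a replicate block. Of all probe sets, 20% were called in the main fit and 33.8% with the block. Median centring called 15.6% of them lower and 5.25% higher. Cold in Huayang gave 11, with 5 without the wild type line and 16 with the block. There the block called 30.9% of all probe sets, beside 19.3% in the main fit. The cold by cultivar interaction gave 0, and 1 with the replicate block, where 0.102% and 0.576% of all probe sets were called. Cultivar before cold gave 1, with 2 on values as deposited, 3 with 8 group means, 3 without the ZH11 control line and 2 without the wild type line. Cultivar after cold gave 4, with 2 on only the arrays of that time and 2 without the wild type line. Overexpression before cold gave 0, and 1 under median centring, which called 1.63% of all probe sets higher and 0.18% lower. Overexpression after cold gave 1, and 0 without the trend. The block also ended the call of NIP1-1 in the mean overexpression difference, and called 1 further aquaporin lower for cold over all lines. The causes were not tested. Where no share of all probe sets is given, a changed count does not show whether the aquaporins moved apart from the rest. With 1 array left out, counts ranged from 5 to 11 for cold in ZH11, 7 to 12 in Huayang, 15 to 16 in all lines, 1 to 2 and 2 to 5 for cultivar before and after cold, 0 to 1 for overexpression after cold and 1 to 4 for its mean of both times, and were 0 in the other comparisons. The mean of both times fell to 1, Lsi6 alone, without OE2 at either time.

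Scaling moved the split of all called probe sets. For cold in all lines 14.2% were higher and 19.9% lower, with 10.5% and 23.6% on values as deposited and 8.94% and 24.6% after median centring, while the aquaporins stayed at 15 lower and 1 higher, by count. For the mean overexpression difference 2.17% and 1.89% became 3% and 1.36%, then 4.17% and 1.04%, and NIP1-1 lost its call under median centring. Median centring moved the median of all probe sets before cold to 0.10 in the overexpression comparison.

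With 1 control and 1 wild type array per time, genotype results rest on few arrays, and readings at or below 73.9 give at most a bound on the size of a change.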
